A study of Mus musculus with 8 samples.

Results

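The comparison described here set injured kidneys of mice given a miR-5100 mimic against injured kidneys of mice given a control miRNA, across all genes measured. Its members are 4 of the 8 arrays of the study, chosen by their titles: the mimic pair is mouse 6 and mouse 7, and the control pair is mouse 1 and mouse 5 of the control miRNA. All 4 mice received 5 nmol of small RNA in 200 µl by tail vein, bound to polyethyleneimine nanoparticles at an N/P ratio of 6 (polymer nitrogen over RNA phosphate), and were operated on 2 days later. The operation removed the right kidney and clamped the left renal vessels for 45 min (ischaemia-reperfusion injury, IRI), and the left kidney was taken 24 h afterwards. Every kidney of the comparison therefore carried the injury, a nanoparticle injection and a foreign small RNA, and the groups differed in the sequence of that RNA. The other 4 arrays came from IRI mice 30 and 34, which had the injury and no labelled injection, and from sham mice 1 and 4, which had a midline incision only. Which cells of the kidney took up the particles was not measured. Strain, age and sex are not given in the sources used here.

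A microRNA is a short RNA that guides an Argonaute protein to messenger RNAs. Pairing runs mainly through the seed, bases 2 to 8 of the microRNA, and paired messengers are usually destabilised or translated less. A mimic is a synthetic RNA that enters the same protein complex, and a control miRNA is meant to do so without the mimic's targets. In the kidney, ischaemia followed by reperfusion injures mainly the proximal tubule, which lives on fatty acid oxidation, and it also damages the fine capillaries around the tubules.

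The injected sequences are shown because their seeds are the designed difference between the groups, with the seed in capitals.
miR-5100 mimic: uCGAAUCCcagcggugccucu
control miRNA: gGUUCGUAcguacacuguuca
The mimic, 21 nt long, was identical to the mature mmu-miR-5100 of RefSeq, which lies at chr11:60728698-60728718 on the plus strand of GRCm38.p6. Its hairpin, Mir5100, is shown with the mature arm in capitals.
Mir5100 hairpin: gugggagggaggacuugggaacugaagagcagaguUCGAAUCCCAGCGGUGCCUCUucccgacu
Of 1738 mature mouse miRNAs in the RefSeq table, 1 had the mimic's seed, miR-5100 itself, and 0 had the seed of the control miRNA. The mimic and the control miRNA shared a base at 3 of 21 positions. The arrays measure messenger RNA, and no probe was named for miR-5100, so the amount of mimic that reached the kidney was not measured.

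A value below is a relative signal: the log2 of an array's processed signal for a probe minus the log2 of that array's 75th percentile, so that 0 is the brightness of the 75th percentile spot. Differences are mimic minus control miRNA on that log2 scale, with the moderated standard error (SE) of limma, which pools the spread of all 4 groups, and n = 2 mice in each group. An exact permutation test of 2 against 2 mice cannot give a two-sided p below 0.333, so the groups are described by each mouse's value. A single slide, scanned once, held the 8 arrays. The 4 injected kidneys filled 1 row of it, mimic in columns 1 and 2 and control miRNA in columns 3 and 4, so side of the row and RNA cannot be told apart. The mimic arrays were the dimmest of the slide: their 75th percentile was 308 and 242 intensity units, against 500 and 416 in control-miRNA mice, 468 and 600 in IRI mice and 408 and 476 in sham mice. The place of a probe also moved with the mimic. In 5787 genes with probes 1 to 500 kb apart, the probe nearer the 3′ end was brighter than the one nearer the 5′ end by a median log2 of 2.20 and 2.24 for mimic kidneys, against 2.71 and 2.59 for control-miRNA kidneys and 2.49 to 2.70 for IRI and sham kidneys. In those genes the median difference, mimic minus control miRNA, was -0.11 at the 3′ probe and 0.33 at the 5′ probe. The gap between the groups in 3′ minus 5′ signal depended on distance. Its median was -0.59 in 3943 genes with probes 5 to 500 kb apart and -0.01 in 1844 genes with probes 1 to 5 kb apart. The part of brightness and of probe place in the results was not tested, so values with brightness as a covariate, and other probes of a gene that disagree, are given beside many of the results. Probes of a gene often disagreed: of 7346 genes with several kept probes, 3823 (52.0%) had probes whose differences were of opposite sign.

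**Figure D1:**
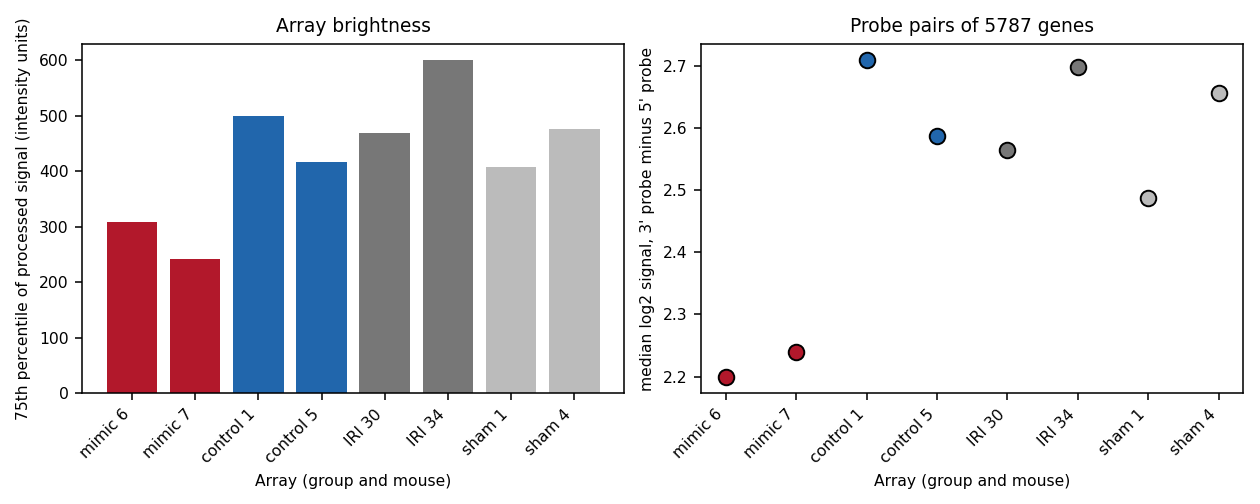
Left, the 75th percentile of the processed signal of each array in intensity units, with 308 and 242 on the mimic arrays below the 408 to 600 of the 6 others. Right, the median log2 difference between the 3′ and the 5′ probe of 5787 genes on each array, with 2.20 and 2.24 on the mimic arrays and at least 2.49 on the others (the axis does not start at 0).

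Among 21264 genes tested, 0% passed an adjusted p of 0.05 in limma. The lowest adjusted p was 0.0662 and was shared by 1364 genes. At an unadjusted limma p under 0.05 there were 7188 genes, 19.5% of all genes higher in mimic kidneys and 14.3% lower. The count of called genes depended on the processing: it was 5810 with a normexp background correction, 1955 with an intensity trend and a robust prior, and 6318 when mimic mouse 6 was left out, which leaves mouse 7 alone and assumes that it varied like the other groups. Both mimic arrays lay above both control-miRNA arrays for 33.1% of genes and below both for 26.1%. With a mean difference of at least 2-fold added, 7.73% of genes were higher and 4.33% lower. The higher ones made up 64.1% of these genes, and 48.2% after quantile normalization, 53.3% with normexp and 48.0% in the authors' deposited table of ratios. The median difference of all genes was 0.07. Because no gene passed the adjusted test in the fit reported here, genes are said to lie higher or lower without overlap, and every such count is read against these shares. The mimic mice differed more from each other than the mice of any other group: across genes, the difference between both mice of a group had an SD of 0.669 in mimic, 0.515 in control-miRNA, 0.390 in IRI and 0.327 in sham kidneys.

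The largest positive differences among genes measured on all 4 arrays belonged to Arntl, Ccl12, Opcml, Slc22a30, Pign, Mrgprg, Lrrc7, Syn3, Rnu1b1 and Trpc6, between 2.18 and 2.79. Arntl, the BMAL1 subunit of the circadian clock, had -0.77 and -1.25 in mimic kidneys and -3.59 and -4.02 in control-miRNA kidneys. Both mimic values stood far above both control-miRNA values, a difference of 2.79 ± 0.65 (SE, limma adjusted p = 0.0662), and its other probes gave 0.64 and 2.02. Ccl12, a chemokine that draws monocytes, had -1.75 and -0.24 against -3.61 and -3.85, and its difference was 2.73 ± 0.48 (SE, limma adjusted p = 0.0662). Slc22a30, an organic anion transporter of the kidney, had 1.88 and 3.98 in mimic kidneys against -0.09 and 1.14 in control-miRNA kidneys. Mimic mouse 7 was the high one there, and the same mouse was the higher of the pair for Pign, Lrrc7, Rnu1b1 and Trpc6. With brightness as a covariate, Pign, Lrrc7 and Trpc6 changed sign, to -0.10, -0.13 and -0.25. The same covariate left 1.54 for Arntl, 0.99 for Opcml, 0.91 for Mrgprg, 0.74 for Syn3, and 0.61 for both Slc22a30 and Rnu1b1, while Ccl12 stood at 2.31. Without the covariate, other probes gave differences as low as 0.15 for Syn3, 0.42 for Pign and 0.66 for Slc22a30.

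The largest negative differences belonged to Slco1a1, Cyp4a10, Tnfrsf21, Myorg, Cldn2, Cyp2e1, Slc6a19, Zbtb16, Plin2 and Adtrp, between -2.44 and -1.95. Cyp2e1, Slc6a19, Slco1a1, Cyp4a10 and Cldn2 are genes that the proximal tubule uses for transport or metabolism. Cyp2e1, a cytochrome P450 of drug and fatty acid metabolism, had 2.23 and 2.36 in mimic kidneys against 4.27 and 4.73 in control-miRNA kidneys. Its mice agreed closely within each group, its difference was -2.20 ± 0.24 (SE, limma adjusted p = 0.0662), and it was -2.26 with brightness as a covariate. Slco1a1, an organic anion transporter, had -3.72 and -3.08 against -1.29 and -0.63, a difference of -2.44 ± 0.39 (SE, limma adjusted p = 0.0662). Injury had lowered both genes. Cyp2e1 had 3.85 and 4.33 in IRI and 6.96 and 6.81 in sham kidneys, and Slco1a1 had -2.44 and -1.71 in IRI and 1.32 and 0.69 in sham kidneys. For both genes the mimic kidneys thus lay farthest from sham. Zbtb16, a zinc finger transcription factor that glucocorticoids induce, had -0.31 and -0.37 against 1.81 and 1.56. IRI kidneys had 0.22 and -1.40 and sham kidneys -0.57 and -0.54. For Zbtb16 the control-miRNA mice were thus above every other mouse, and the mimic values lay within the range of IRI and sham kidneys. Plin2, the coat protein of lipid droplets, showed the mouse-to-mouse spread: 6.00 in mimic mouse 6 and 3.27 in mimic mouse 7, against 6.11 and 7.15 in control-miRNA mice. Cyp4a10, Myorg, Cldn2 and Slc6a19 were likewise much lower in mimic mouse 7 than in mouse 6, and with brightness as a covariate Myorg turned to 0.15, Slc6a19 to 0.30, and Cldn2 stood at -0.01, Cyp4a10 at -0.75 (its other probes differed by -0.89 and -0.05 without the covariate), Plin2 at -0.81 and Tnfrsf21 at -1.20. For Tnfrsf21, a death receptor, the brighter probe gave -2.36 and another gave 0.10.

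Some genes were well above background in 1 group only and have bounds. Unc13c was at least 4.45-fold higher in mimic kidneys, D2Ertd127e at least 3.50-fold and Xlr4a at least 3.31-fold. Chst13 was at least 2.62-fold lower in mimic kidneys, Duox1, a hydrogen peroxide-making oxidase, at least 2.54-fold and Intu, a protein of primary cilia, at least 2.14-fold. The bound sets the mean of the bright group against a floor, which is the dimmest signal that still counted as well above background on an array of the dim group. With brightness as a covariate the fitted differences, which are no bounds, were 0.22 for Unc13c, 1.23 for D2Ertd127e, -1.10 for Chst13 and -0.64 for Intu.

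Endothelial genes lay higher in mimic kidneys as a group. Blood vessel endothelium carries VE-cadherin at its junctions, receptors for vascular endothelial growth factor, and a set of ETS and SOX transcription factors. Of the 40 genes of the endothelial list 38 were tested (Flt4 and Lyve1, which also mark lymphatics, were not), 36 of 38 had a positive difference, and 34 lay above the control-miRNA kidneys without overlap, against 33.1% of all genes. No member lay below without overlap. The median difference of the list was 0.76, it was 0.58 in mimic mouse 6 and 0.90 in mouse 7 taken alone, and it was 0.73 with brightness as a covariate. The summed linear signal of the list, relative to each array's 75th percentile, was 104 and 123 in mimic kidneys, 63.1 and 67.7 in control-miRNA kidneys, 60.4 and 62.8 in IRI kidneys and 76.3 and 88.8 in sham kidneys. On all 4 arrays of the comparison 36 of 38 members were well above background, and Clec14a was on none. Signals of a bulk kidney are relative to the array's 75th percentile. More endothelial cells, more RNA per endothelial cell and a smaller share of other RNA therefore cannot be told apart. The same holds for every cell type below.

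Cdh5, which encodes VE-cadherin, had 0.17 and 0.70 in mimic kidneys and -1.06 and -0.62 in control-miRNA kidneys (probe at chr8:106668159-106668218, mm9, plus strand). Both mimic mice were above both control-miRNA mice, and also above both IRI mice (-0.58 and -0.68) and both sham mice (-0.40 and -0.13). The difference was 1.27 ± 0.25 (SE, limma adjusted p = 0.0662) and 0.72 with brightness as a covariate. Kdr, the main signalling receptor for VEGF, had 1.54 and 2.07 in mimic kidneys against 0.89 and 0.07 in control-miRNA kidneys. Its groups did not overlap, its control-miRNA mice were far apart, and the difference was 1.33 ± 0.31 (SE, limma adjusted p = 0.0662). Tal1, a transcription factor of blood and endothelial precursors, had -2.41 and -1.81 against -3.44 and -3.64, with a difference of 1.44 ± 0.22 (SE, limma adjusted p = 0.0662).

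Adhesion and surface proteins showed the same direction with tighter mice. Icam2, an adhesion molecule for leukocytes, had 1.56 and 1.91 in mimic kidneys against 0.72 and 0.73 in control-miRNA kidneys (difference 1.01 ± 0.18 SE). Emcn, the endomucin of capillaries and veins, had 2.90 and 3.11 against 2.14 and 1.94 (0.96 ± 0.19 SE). Pecam1, a junction protein of endothelium and platelets, had -1.95 and -2.05 against -2.78 and -2.58, a difference of 0.68. Cd93 differed by 0.86, Eng, a co-receptor of the TGF-beta family, by 0.79, and Egfl7, a secreted endothelial factor, by 0.92. Among transcription factors the differences were 0.91 for Sox18, 0.68 for Sox17, 0.69 for Fli1 and 0.54 for Erg, each without overlap, and with brightness 0.62, 0.35, 0.98 and 0.14. The exceptions were Tek, the angiopoietin receptor, at -0.14, and Aplnr, the apelin receptor, at -0.23, with Vwf and Gpihbp1 positive but overlapping.

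Between IRI and sham kidneys the same list had a median difference of -0.45. At a limma adjusted p of 0.05, with no fold threshold, 6 of 38 members were called lower, against 1882 of all 21264 genes. By the same rule 0 members were called higher, against 2009 of all genes. Cd93, a receptor of endothelium and myeloid cells, Ecscr, a regulator of endothelial migration, and Nos3, the endothelial nitric oxide synthase, had positive IRI minus sham differences of 0.41, 0.78 and 0.49 that did not pass (limma adjusted p = 0.13, 0.116 and 0.173), and they too lay higher in mimic than in control-miRNA kidneys, by 0.86, 0.85 and 0.51.

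**Figure D2:**
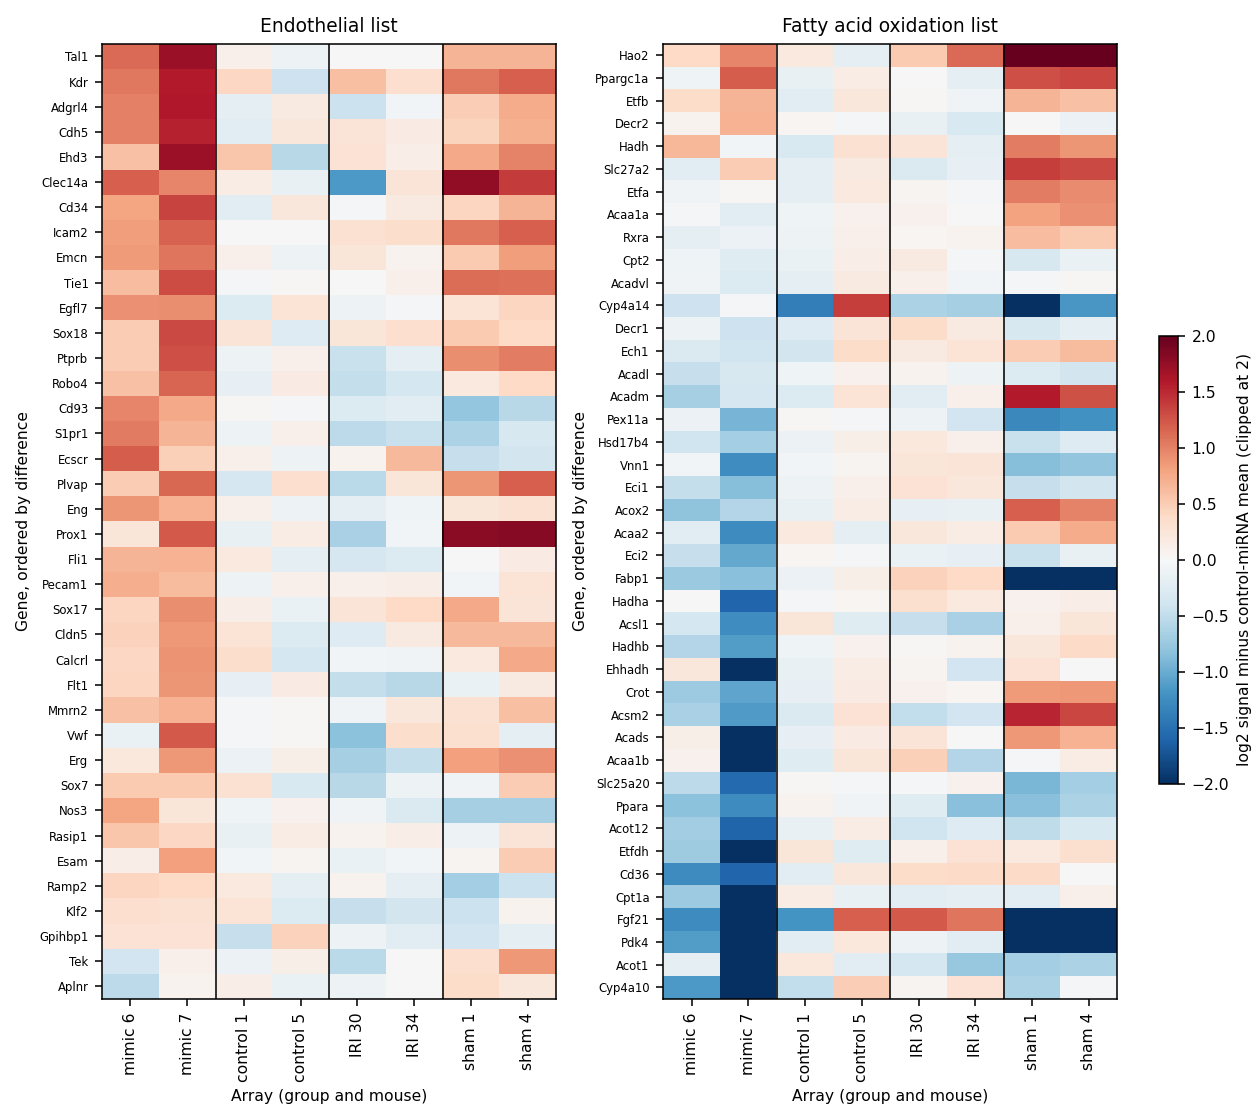
Genes of the endothelial list (left) and of the fatty acid oxidation list (right, reported members) on the 8 arrays, as relative log2 signal minus the mean of the 2 control-miRNA arrays, clipped at 2 in either direction. The mimic columns are red for most endothelial genes, 34 of 38 without overlap, and blue for most fatty acid oxidation genes, 26 of 44 without overlap, with deeper blue in mimic mouse 7.

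The promoters of the endothelial members were read, since most of the list lay in the same direction. ETS factors such as Erg and Fli1 bind sites with the core GGAA, and the letters CAGGAAG were searched on both strands of 300-base promoters (250 bases before the start to 50 after it, RefSeq, GRCm38.p6). Of 20 list members with a promoter in the table, 8 held the letters (40.0%): Emcn, Erg, Egfl7, Robo4, Cd34, Ehd3, Rasip1 and Calcrl. Among fatty acid oxidation members it was 4 of 36 (11.1%), and among all promoters 3997 of 27025 (14.8%). The Emcn promoter, chr3:137340828-137341127 on the plus strand, is shown with the match, on its other strand, in capitals.
Emcn promoter: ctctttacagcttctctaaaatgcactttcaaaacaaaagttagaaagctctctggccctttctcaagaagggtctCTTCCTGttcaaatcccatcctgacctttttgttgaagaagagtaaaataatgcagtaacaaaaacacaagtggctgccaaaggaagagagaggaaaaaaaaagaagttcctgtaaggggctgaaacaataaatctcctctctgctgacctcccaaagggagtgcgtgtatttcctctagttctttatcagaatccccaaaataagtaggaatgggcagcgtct
A match of letters is a description and not a bound site. The letters do not depend on these arrays, and promoters of members that lay higher were not compared with those of members that did not. Whether ETS factors had a part in the differences was not tested.

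Among growth factors and receptors of vessels, 6 of 16 genes lay higher without overlap and 3 lower, against 33.1% and 26.1% of all genes. The median of the 16 was 0.30. Notch1, a receptor of vessel branching and many other tissues, had 1.64 and 2.24 in mimic kidneys against -0.28 and 0.49 in control-miRNA kidneys. Its difference was 1.84 ± 0.40 (SE, limma adjusted p = 0.0662), which shrank to 0.18 with brightness as a covariate. Angpt2, an antagonist of Tek made by endothelium, had 0.71 and 1.27 against -0.15 and -0.02, a difference of 1.07 that became 0.32 with brightness. Angpt1, the agonist of Tek, lay lower, with -1.17 and -1.18 against -0.48 and -0.69. Vegfa overlapped between the groups, with 1.01 and 1.79 against 1.64 and 1.33 at its brightest probe, and another probe differed by 2.01. For Nrp2, a co-receptor for VEGF and semaphorins, the brightest probe lay lower by 1.21 while another probe lay higher by 0.95. With brightness Nrp2 stood at -0.25 and Angpt1 at -0.28.

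Of 31 pericyte, fibroblast and matrix genes 14 lay higher and 3 lower without overlap, against 33.1% and 26.1% of all genes. Their median was 0.50. Their summed linear signal was 419 and 366 in mimic kidneys against 343 and 227 in control-miRNA kidneys. Tnc, the matrix protein tenascin C, had -0.31 and -0.94 in mimic kidneys against -2.45 and -2.54 in control-miRNA kidneys, a difference of 1.87 ± 0.32 (SE, limma adjusted p = 0.0662). Tnc was itself raised by injury, 3.05 higher in IRI than in sham kidneys, so that the mimic kidneys lay farther from sham. Myh11, the smooth muscle myosin heavy chain, had -0.68 and -0.52 against -1.63 and -2.06. Pdgfrb, the receptor that marks pericytes, had 2.10 and 2.12 against 1.22 and 1.24, with the mice of each group close together. The collagen genes Col1a1, Col1a2, Col3a1 and Col5a1 lay higher by 0.84 to 0.90, while Col4a1 and Col4a2 of the basement membrane overlapped, at -0.69 and -0.61. With brightness as a covariate Col1a1 turned to -0.20 and Col3a1 stood at 0.19.

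**Figure D3:**
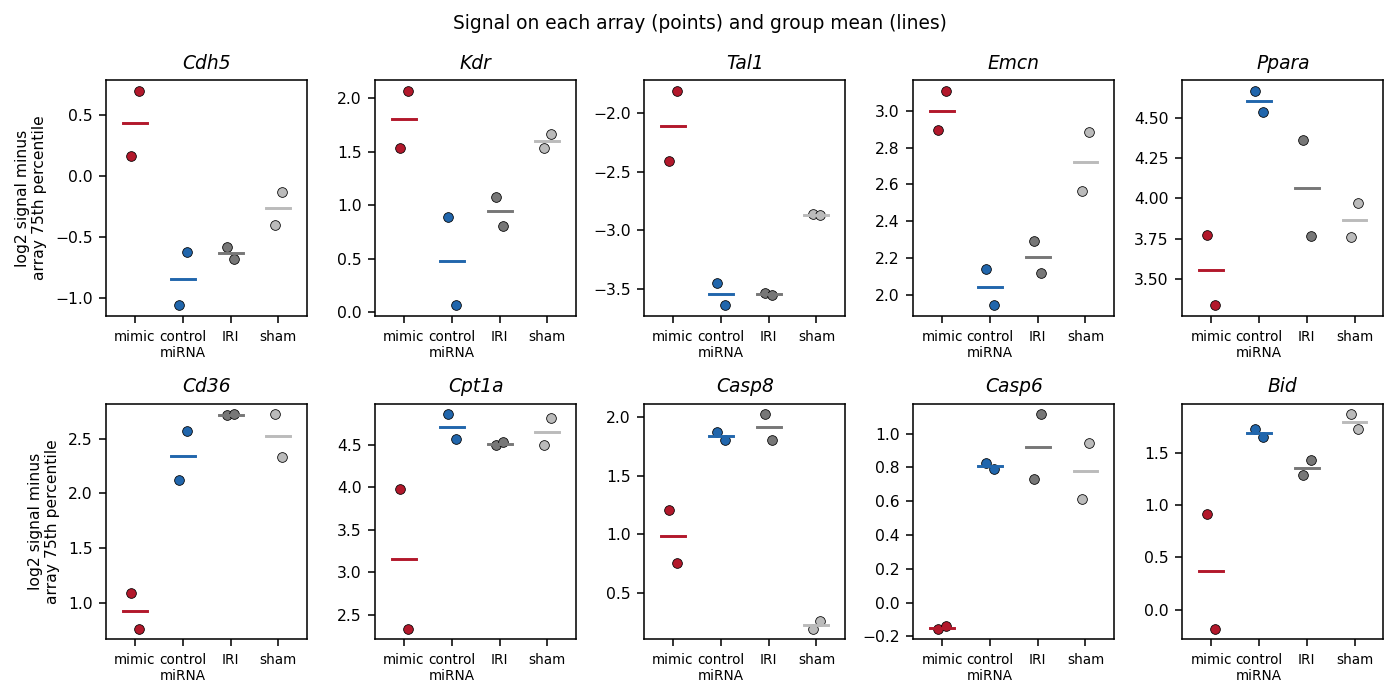
Relative log2 signal of 10 genes on each array (points) with the group mean (lines), for mimic, control-miRNA, IRI and sham kidneys, on axes of their own that do not start at a common value. Cdh5, Kdr, Tal1 and Emcn lie higher and Ppara, Cd36, Cpt1a, Casp8, Casp6 and Bid lower in both mimic mice than in both control-miRNA mice.

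Fatty acid oxidation genes lay lower in mimic kidneys as a group. Fatty acids enter cells through carriers such as CD36, are activated, pass into mitochondria through the carnitine shuttle or into peroxisomes, and are shortened there. PPARA is the nuclear receptor that turns these genes on. All 44 members were tested, 6 had a positive difference, 26 lay below and 3 above without overlap, against 26.1% and 33.1% of all genes, and 11 were at least 2-fold lower against 4.33%. The median was -0.74, which was -0.38 in mimic mouse 6 and -1.04 in mouse 7, and -0.39 with brightness as a covariate. The summed linear signal was 1475 and 1303 in mimic kidneys against 1566 and 1982 in control-miRNA kidneys.

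Ppara had 3.77 and 3.34 in mimic kidneys and 4.66 and 4.54 in control-miRNA kidneys (probe at chr15:85632110-85632169, mm9, plus strand). Both mimic mice were below both control-miRNA mice, while the IRI mice (4.36 and 3.77) and sham mice (3.76 and 3.97) overlapped the mimic mice in part. The control-miRNA mice were above every mimic, IRI and sham mouse. The difference was -1.04 ± 0.25 (SE, limma adjusted p = 0.0673), it kept its sign with brightness as a covariate, and its other probe gave -1.21. Ppargc1a, its coactivator, overlapped, with 1.99 and 3.30 against 1.94 and 2.22, and Rxra, its partner receptor, differed by -0.15.

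At the entry step, Cd36 had 1.09 and 0.76 in mimic kidneys against 2.12 and 2.57 in control-miRNA kidneys, with IRI and sham kidneys between 2.33 and 2.72. Both mimic mice were thus below all 6 other mice, with a difference of -1.42 ± 0.23 (SE, limma adjusted p = 0.0662), and of -1.59 with brightness. In the carnitine shuttle, Cpt1a, the rate-limiting transferase, had 3.98 and 2.34 against 4.85 and 4.56. Its difference of -1.55 ± 0.48 (SE, limma adjusted p = 0.0858) rested largely on mimic mouse 7 and was -0.07 with brightness. Slc25a20, the carnitine carrier, had -0.50 and -1.53 against 0.05 and 0.00 and stood at -0.11 with brightness, and Cpt2, the inner membrane transferase, overlapped at -0.16.

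Inside mitochondria, Hadhb, the thiolase subunit of the trifunctional protein, had 4.01 and 3.48 against 4.50 and 4.68, although another probe of the gene gave 0.69. Acadl and Acadm, the long- and medium-chain dehydrogenases, lay lower by 0.39 and 0.50, and Acadvl, the very-long-chain one, overlapped at -0.18. Etfdh, which passes the electrons on, lay lower, with a difference of -1.36 at its brightest probe and 0.03 at another, and 0.01 with brightness, whereas Etfb lay higher by 0.53. In peroxisomes, Crot, which exports the shortened chains, differed by -0.89 at its brightest probe and 0.83 at another, and Acox2, an oxidase of branched chains, by -0.70. With brightness Hadhb stood at -0.47 and Etfb at -0.05.

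Among targets of PPARA outside the pathway itself, Pdk4, the kinase that blocks pyruvate entry, had 2.67 and 1.17 in mimic kidneys against 3.56 and 3.99 in control-miRNA kidneys. It was raised by injury, with 3.68 and 3.57 in IRI kidneys against -0.95 and 0.02 in sham kidneys, so the mimic values lay between those of IRI and sham kidneys. Fabp1, the fatty acid binding protein of liver and proximal tubule, had -0.47 and -0.55 against 0.16 and 0.41. Hao2 and Decr2 lay higher, by 0.69 and 0.38. With brightness Pdk4 stood at -0.68 and Decr2 at -0.19.

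PPARA with its partner binds pairs of half-sites, and the letters AGGNCA (N for any base), repeated in the same direction with 1 base between, were searched on both strands of the promoters. They stood in 1 of 36 fatty acid oxidation promoters (2.78%), that of Fabp1, in 0 of 20 endothelial promoters and in 122 of 27025 promoters in all (0.451%). The Fabp1 promoter, chr6:71199629-71199928 on the plus strand of GRCm38.p6, is shown with the match, on its other strand, in capitals.
Fabp1 promoter: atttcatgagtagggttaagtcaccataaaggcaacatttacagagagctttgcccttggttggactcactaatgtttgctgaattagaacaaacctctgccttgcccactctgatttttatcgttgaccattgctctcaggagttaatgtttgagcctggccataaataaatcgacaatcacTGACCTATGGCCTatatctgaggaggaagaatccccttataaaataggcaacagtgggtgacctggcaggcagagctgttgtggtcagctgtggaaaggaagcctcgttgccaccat

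Of 40 genes of the respiratory chain and the citric acid cycle 19 lay lower and 2 higher without overlap. The shares of all genes were 26.1% and 33.1%, and the median of the list was -0.25. Pdha1, a subunit of pyruvate dehydrogenase, had 2.67 and 2.40 in mimic kidneys against 3.72 and 3.61 in control-miRNA kidneys, a difference of -1.13 ± 0.18 (SE, limma adjusted p = 0.0662), but another probe of the gene gave 0.98. Uqcrfs1, the iron-sulphur protein of complex III, differed by -0.75 and Sucla2, a succinyl-CoA ligase subunit, by -0.81, or -0.50 with brightness. Tfam, the transcription factor of mitochondrial DNA, had 0.36 and -0.78 against 1.40 and 0.97, a difference of -1.40 that was -0.05 with brightness.

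Caspases are proteases that carry out apoptosis: caspase 8 starts it from death receptors, caspase 9 from mitochondria through APAF1 and cytochrome c, and executioner caspases such as caspase 6 carry it through. Casp8 had 1.21 and 0.75 in mimic kidneys and 1.87 and 1.81 in control-miRNA kidneys (probe at chr1:58901601-58901660, mm9, plus strand). Both mimic mice were below both control-miRNA mice and both IRI mice (2.02 and 1.81), and above both sham mice (0.19 and 0.26). The difference was -0.86 ± 0.20 (SE, limma adjusted p = 0.0662), and -0.63 with brightness. Injury itself had raised Casp8 by 1.69 over sham (limma adjusted p = 0.0035).

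Casp6 had -0.15 and -0.14 in mimic kidneys against 0.83 and 0.79 in control-miRNA kidneys, with the mice of each group nearly equal and a difference of -0.96 ± 0.20 (SE, limma adjusted p = 0.0662). Cycs, cytochrome c, had 6.19 and 5.49 against 6.97 and 6.51. Apaf1 was at least 1.17-fold lower, being not well above background on either mimic array, and Casp9 lay lower by 0.30 at its brightest probe and higher by 0.42 at another. The inflammatory caspases Casp1 and Casp4 lay higher, by 0.82 and 0.69. With brightness Casp6 stood at -0.52, Cycs at -0.28, Apaf1 at 0.74 and Casp4 at 0.32. Over the 12 genes of the list 3 lay higher and 7 lower without overlap, against 33.1% and 26.1% of all genes. The median of the list, -0.28, turned to 0.12 with brightness as a covariate.

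Upstream of caspase 8, 4 of 17 receptor genes lay higher and 5 lower without overlap, against 33.1% and 26.1% of all genes. The median of this list was 0.05. Tnfrsf1a, the main TNF receptor, had 3.45 and 3.39 in mimic kidneys against 3.95 and 4.11 in control-miRNA kidneys. Tnfrsf12a, the TWEAK receptor, lay lower by 0.83, and Tnf lay higher by 0.56. With brightness Tnfrsf1a stood at -0.35, Tnfrsf12a at -0.10 and Tnf at -0.22. Fas overlapped (0.02), as did Fadd, the adaptor of caspase 8 (-0.18). In the BCL2 family, Bid, which links caspase 8 to mitochondria, had 0.92 and -0.18 against 1.73 and 1.65, a difference of -1.33 ± 0.33 (SE, limma adjusted p = 0.0686) that was -0.47 with brightness. Bnip3, a mitophagy protein induced by hypoxia, had 4.16 and 3.83 against 4.77 and 5.18. Bax lay higher by 0.29 at its brightest probe, and another probe gave -0.73. Of the pro-apoptotic genes 3 of 12 lay higher and 6 lower, and of the anti-apoptotic ones 0 of 11 higher and 4 lower. The medians were -0.26 and -0.30, and the shares of all genes were 33.1% higher and 26.1% lower. Bcl2 itself overlapped (-0.17). Trp53, whose protein acts above several of these genes, had 1.71 and 1.96 in mimic kidneys against 0.42 and 0.80 in control-miRNA kidneys, a difference of 1.22 that was 0.44 with brightness.

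Tubular injury markers differed between the mimic mice. Over 36 such genes 12 lay lower and 4 higher without overlap, against 26.1% and 33.1% of all genes, and the median of -0.26 was -0.05 in mimic mouse 6, -0.47 in mouse 7 and 0.31 with brightness as a covariate. Havcr1, the KIM-1 protein of injured proximal tubule, had 3.82 and 2.97 in mimic kidneys against 4.44 and 4.25 in control-miRNA kidneys, with -5.31 and -4.72 in sham kidneys. Its mimic values were lower without overlap but far from sham, and the difference of -0.95 turned to 0.16 with brightness. Krt20, a keratin of injured tubules, had 5.74 and 4.41 against 6.40 and 6.08, a difference of -1.17 that was -0.26 with brightness. Lcn2, the NGAL protein, overlapped, with 7.49 and 5.85 against 7.77 and 7.13. Fgg, Fga and Fgb, the fibrinogen chains, lay lower by 1.95, 1.88 and 1.81, in each case with mouse 5 well above mouse 1 among the controls. Fgg, for example, had 4.62 and 3.36 in mimic kidneys against 5.12 and 6.77 in control-miRNA kidneys. Timp1, an inhibitor of matrix proteases, lay higher by 0.55 and Vim, vimentin, by 1.10, and Spp1, osteopontin, overlapped (0.10).

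Whether the mimic kidneys lay nearer to sham was read from genes that injury had changed. Genes were called at a limma adjusted p of 0.05 and a 2-fold change between IRI and sham kidneys. They were higher in IRI kidneys (injury-raised, 5.92%) or lower (injury-lowered, 6.38%). The size of that change came from IRI and sham arrays, which hold no mouse of the comparison. The SE behind the adjusted p pooled the spread of every group, mimic and control-miRNA mice included. The choice of genes was therefore not independent of the comparison, and its effect on the shares without overlap was not tested. Of 1258 injury-raised genes 858 (68.2%) had a negative difference, that is toward sham, where 55.0% of all genes had a positive one, 472 (37.5%) without overlap, against 26.1% of all genes, and 156 (12.4%) away from sham without overlap. Of 1356 injury-lowered genes 860 (63.4%) had a positive difference, again beside 55.0% of all genes, 445 (32.8%) without overlap, against 33.1% of all genes, and 246 (18.1%) lay the other way. The median differences were -0.25 for injury-raised and 0.19 for injury-lowered genes. The mimic mice differed here. In mouse 7 the medians were -0.41 and 0.44, and in mouse 6 -0.10 and -0.01. With brightness as a covariate they were 0.04 and -0.12, so both turned sign. Across all 21264 genes the 2 contrasts had a Pearson r of -0.287, as a description over genes that are not independent, with -0.354 for mouse 7, -0.121 for mouse 6 and 0.123 with brightness.

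**Figure D4:**
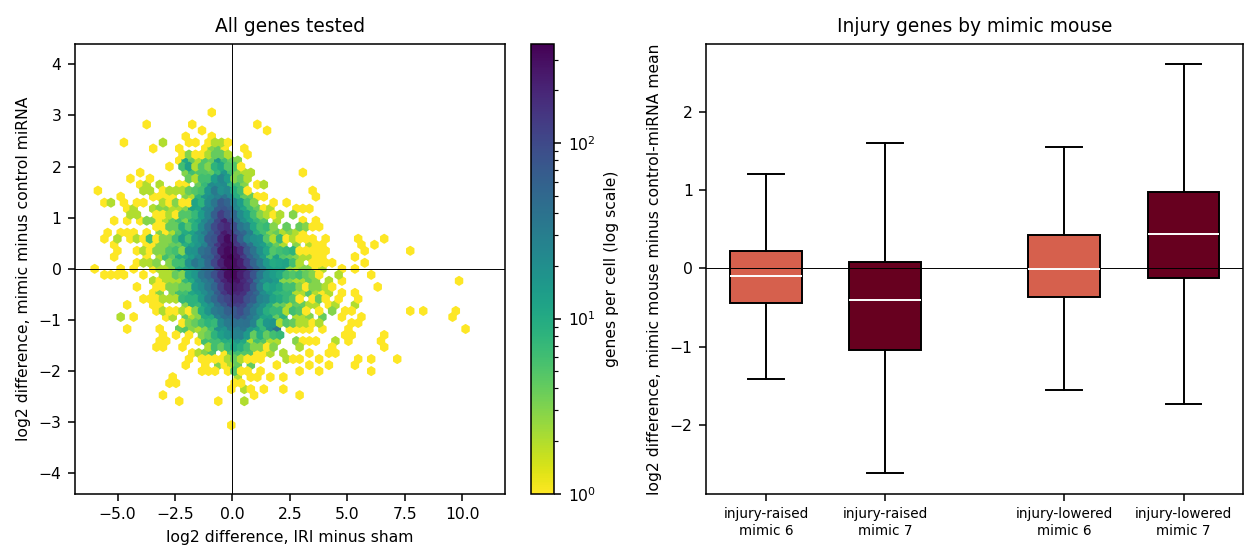
Left, the log2 difference of IRI minus sham (x) against that of mimic minus control miRNA (y) for all genes tested, with darker cells holding more genes (log colour scale); r is -0.287. Right, the difference of each mimic mouse from the control-miRNA mean over the injury-raised and the injury-lowered genes (box, quartiles and median; whiskers, the most extreme gene within 1.5 times the box length, outliers not drawn), with medians of -0.10 and -0.41 for raised and -0.01 and 0.44 for lowered genes in mice 6 and 7.

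Markers of the tubule segments were mixed. Of 46 proximal tubule genes 6 lay higher and 17 lower without overlap, against 33.1% and 26.1% of all genes. Their median was -0.20, and 45 of 46 were well above background on all 4 arrays. Their summed linear signal overlapped, with 1833 and 2176 in mimic kidneys against 1844 and 2158 in control-miRNA kidneys. Slc17a1, a phosphate and urate transporter, had -0.92 and -2.04 against 0.19 and 0.34 (-0.45 with brightness), and Fbp1, a gluconeogenic enzyme, had 5.39 and 3.69 against 6.11 and 6.29 (-0.34 with brightness). Lrp2, the endocytic receptor megalin, and Slc34a1, the main phosphate transporter, overlapped, at -0.18 and 0.10. Gatm, the first enzyme of creatine synthesis, lay higher, with 2.06 and 3.44 against 1.55 and 0.67, and both groups were below sham kidneys at 5.01 and 4.84. In the loop and distal tubule 6 of 26 genes lay higher and 4 lower, again against 33.1% and 26.1% of all genes. Slc12a3, the thiazide-sensitive cotransporter, had 0.90 and 1.99 in mimic kidneys against 0.25 and 0.50 in control-miRNA kidneys (0.40 with brightness), and Umod, uromodulin, had 7.32 and 7.27 against 8.03 and 7.98, a difference of -0.71 that was 0.01 with brightness.

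In the collecting duct 9 of 23 genes lay lower and 1 higher, against 26.1% and 33.1% of all genes. Aqp2, the vasopressin-regulated water channel, had 1.54 and 1.48 in mimic kidneys against 2.67 and 2.18 in control-miRNA kidneys, a difference of -0.92 that was -0.36 with brightness. Scnn1g, the gamma subunit of the epithelial sodium channel, had -0.59 and -0.83 against 0.26 and 0.43, a difference of -1.05 ± 0.19 (SE, limma adjusted p = 0.0662), and of -0.65 with brightness. Scnn1a, the alpha subunit, differed by -0.54 at its brightest probe and 0.50 at another, and Hsd11b2, the enzyme that guards the mineralocorticoid receptor from cortisol-like steroids, by -1.14, or -0.07 with brightness. Podocyte genes varied by mouse: 3 of 19 lay higher and 1 lower without overlap, against 33.1% and 26.1% of all genes. A positive difference was found in 13 of 19. Their median was 0.64, and 0.72 with brightness, with 0.15 in mimic mouse 6 and 0.87 in mouse 7. Control-miRNA mouse 5 was low in Nphs1 (nephrin), with -0.58 and 0.25 in mimic kidneys against -0.13 and -2.27 in control-miRNA mice 1 and 5.

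Interferon-stimulated genes lay higher in mimic kidneys. Foreign RNA is sensed by Toll-like receptors, by RIG-I and MDA5, and by OAS enzymes, and interferon then raises a common set of antiviral genes. Of 24 such genes tested 14 lay higher and 3 lower without overlap, against 33.1% and 26.1% of all genes. The median of these 24 was 0.51, and 0.51 with brightness as a covariate. Their summed linear signal was 57.7 and 61.8 in mimic kidneys against 38.9 and 41.1 in control-miRNA kidneys. Isg15, a ubiquitin-like modifier, had 2.28 and 2.10 in mimic kidneys against 0.65 and 0.91 in control-miRNA kidneys. The groups were well apart, IRI and sham kidneys lay between 0.32 and 1.42, and the difference was 1.41 ± 0.24 (SE, limma adjusted p = 0.0662). Ifitm3, which blocks virus entry, had 3.94 and 3.73 against 2.95 and 2.82, and Usp18, which removes ISG15, had -0.91 and -1.35 against -2.36 and -2.15. Irf7 differed by 0.04, and Psmb8, Gbp2 and Isg20 lay lower, by 0.20, 0.50 and 0.48, with Gbp2 at 0.08 and Psmb8 at -0.07 with brightness.

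Among 18 sensors of foreign RNA 8 lay higher and 5 lower, against 33.1% and 26.1% of all genes. Oas1a, an enzyme that makes the activator of RNase L and is itself interferon-stimulated, had 1.63 and 1.21 in mimic kidneys against 0.28 and 0.08 in control-miRNA kidneys, and Oas2 had -0.81 and -0.28 against -2.34 and -2.18. Zbp1, a sensor of Z-form nucleic acids, lay higher by 0.87. Ifih1 (MDA5), Mavs, its adaptor, Tbk1 and Ticam1, the adaptor of TLR3, lay lower by 0.78, 0.78, 0.45 and 0.73, and with brightness by 0.09 and 0.19 for Ifih1 and Tbk1, while Mavs stood at 0.02 and Ticam1 at 0.21. Ddx58 (RIG-I), Tlr7 and Eif2ak2 (PKR) overlapped. Trim25, a partner of RIG-I, had 4.69 and 3.88 against 5.72 and 5.16 at its brightest probe, and 0.14 as the difference of another. With brightness Trim25 stood at -0.08 and Oas2 at 1.06.

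Of the immune cell lists, macrophage and monocyte genes lay higher in 11 of 26 and lower in 3 of 26 (median 0.33). Over all genes the shares were 33.1% higher and 26.1% lower. The summed signals of the list overlapped, 226 and 214 in mimic kidneys against 234 and 226 in control-miRNA kidneys. Itgam, the CD11b integrin, had 4.38 and 5.77 against 2.73 and 3.38, but its difference of 2.02 was 0.12 with brightness. Cd68, a lysosomal protein of macrophages, lay higher by 0.67 at its brightest probe and had -0.33 at another, and Csf1, their growth factor, lay higher by 0.76. Neutrophil genes went both ways, with 7 of 13 lower and 3 higher, against 26.1% and 33.1% of all genes. S100a8 and S100a9, the calgranulins, lay lower by 1.11 and 0.88, and Csf3r, the G-CSF receptor, lay higher by 0.86. With brightness these stood at -0.08, -0.14 and -0.02. Lymphocyte genes lay higher in 8 of 17 and lower in 1 (median 0.54, and -0.12 with brightness), with 8 others of the list, such as Cd8a and Foxp3, not tested. Red cell genes differed between mice within both groups: their summed signal was 76.8 and 12.4 in mimic kidneys against 28.6 and 89.7 in control-miRNA kidneys, with Hba-a1, an alpha globin, at 5.17 and 2.45 against 3.54 and 5.35.

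**Figure D5:**
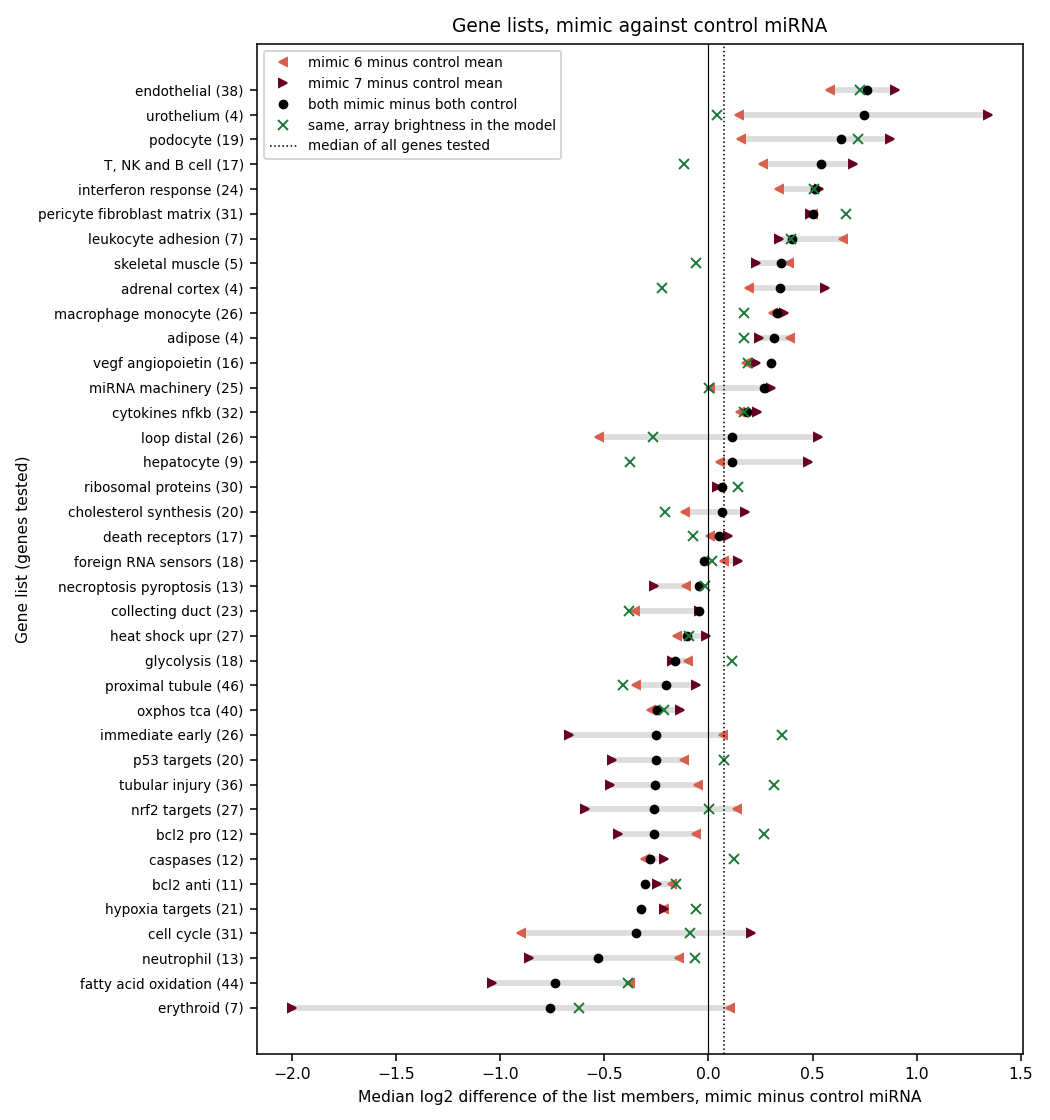
Median log2 difference of each gene list, mimic minus control miRNA (black), for mimic mice 6 and 7 against the control-miRNA mean (arrowheads) and with array brightness in the model (crosses), with the number of genes tested and the median of all genes, 0.07, dotted. The endothelial list lies at 0.58 to 0.90 and the fatty acid oxidation list at -1.04 to -0.38 under these settings, while the tubular injury and caspase lists cross 0.

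Genes of the microRNA pathway lay in both directions, with 9 of 25 higher and 8 lower without overlap, against 33.1% and 26.1% of all genes. Ago2, the Argonaute that can cut its target, had 1.55 and 1.67 in mimic kidneys against 2.19 and 2.13 in control-miRNA kidneys, a difference of -0.55 ± 0.16 (SE, limma adjusted p = 0.0792). Ago1, a partner without strong cutting activity, had 1.24 and 1.56 against 0.74 and 0.89. Dicer1, which makes mature microRNAs, lay higher by 0.85 and Dgcr8, of the nuclear step, lower by 0.58 at its brightest probe and higher by 1.59 at another. Xrn1, the exonuclease that degrades decapped messengers, had -0.83 and -1.38 against 0.15 and -0.46 at its brightest probe, while another probe gave 0.59. With brightness Ago1 stood at 0.12, Dicer1 at 0.54, Dgcr8 at -0.10 and Xrn1 at -0.18.

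The complement of the mimic's seed, GGATTCG, was looked for in the 60 bases of messenger that each tested probe covers, which is a small part of a transcript and not its whole 3′ untranslated region. It stood in 18 of 21264 stretches (0.0847%). Of these genes 5 lay lower and 6 higher without overlap, against 26.1% and 33.1% of all genes. Their median difference was -0.04, with a range of -1.59 to 1.01. TACGAAC, the complement of the control seed, stood in 7 stretches with a median of 0.68. The lowest of the 18 are shown with at most 30 bases and the seed complement in capitals.
Cldn16: cgcttttgatgGGATTCGaacctgcgatga
Commd2: ggtacgtctGGATTCGtggagtttctttcc
Hipk1: aggttatctttGGATTCGttgttgtctgtg
Cldn16, a claudin of the loop of Henle on chromosome 16, had -2.78 and -4.65 in mimic kidneys, of which mouse 7 was not well above background, against -2.26 and -1.98 in control-miRNA kidneys. Commd2, on chromosome 3, had 2.40 and 0.60 against 2.80 and 2.53, and Hipk1, a nuclear kinase on the same chromosome, had 1.46 and 1.56 against 2.23 and 1.84. Their differences were -1.59, -1.16 and -0.52, and that of Cldn16 was 0.25 with brightness. Others with the same letters overlapped or lay higher, such as Abca1, a cholesterol exporter, at -0.20, Rplp0, a ribosomal protein, at 0.02, and Recql, a DNA helicase, at 0.71. A match in these stretches says nothing of the rest of a transcript.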

How the data were processed

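Kidney messenger RNA of 8 mice (30 mg of left kidney, 50 ng of total RNA, Cy3, per the labels' protocols) was measured on 1-colour Agilent arrays. The authors deposited scanner output from Agilent Feature Extraction 12.0.3.1, per the file headers: processed and raw intensity per spot, not scaled between arrays, with design build mm9. They also deposited a table holding each probe as a ratio to its median over the 8 arrays; its scale before that ratio and its centring between arrays are unknown, its direction follows the scanner values (r 0.873 to 0.983), and its column medians were 0.988 to 1.01. It was used as an alternative.

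The deposited intensity was taken as log2, and the 75th percentile over non-control spots of that array was subtracted. Control spots and outlier-flagged spots were left out and spots of 1 probe averaged. A probe was tested where some group had it well above background in both of its mice, and the kept probe with the highest mean stood for its gene. Of 56605 probes, 33767 were named through RefSeq accessions, 9866 by current symbol, 310 by older symbol and 12662 by the file's own name. Kept were 32216 probes of 21264 genes. With limma 3.58.1 in R 4.3.3, a model was fitted with 1 mean per group over 8 arrays and Benjamini-Hochberg adjustment over all genes, after a test on simulated data. Value columns left unused numbered 0. The mouse number in each title is the only sign that samples are separate animals; if they are not, p-values measure technical spread. The number of arrays limits precision.

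Genes are named by a rule: the 10 largest differences per direction without overlap at an unadjusted p under 0.05, up to 3 bounds per direction, up to 4 members of each list by p, and a short set by role. Not every gene picked by the rule is described above, and some lists have no member named. A few list members count in their lists but are not reported here. Other list members were chosen for their role after their values were seen. The comparison, lists and rule were chosen with earlier results of these data known. The alternatives were background correction, normalization, filters, the deposited table, array brightness, slide column, array weights, variance prior, the probe for a gene and leaving out each array. The 3′ probe was added after seeing the data.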

Additional observations from a re-analysis of the deposited data

How the results depend on the processing

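No paired analysis was possible because the mimic and control-miRNA mice share fewer than 2 replicate numbers. Called genes numbered 0 in limma (7188 at an unadjusted p under 0.05), 5810 with normexp, 1955 with a trend and robust prior and 0 to 6318 with 1 array left out (6318 without mimic mouse 6). Genes at least 2-fold higher numbered 1643, but 568 with normexp, 2944 with no filter, 422 with brightness and 1354 to 2925 with 1 array left out. Genes at least 2-fold lower numbered 920, but 497 with normexp, 222 with brightness and 407 to 2087 with 1 array left out. With 1 array left out the list medians ran from 0.58 to 0.90 (endothelial), -1.04 to -0.38 (fatty acid oxidation), -0.47 to -0.050 (tubular injury) and -0.60 to -0.057 (proximal tubule). With brightness they were -0.39 for fatty acid oxidation, 0.12 for caspases, 0.31 for tubular injury, 0.039 for injury-raised and -0.12 for injury-lowered genes, and the caspase median over probes was -0.15. The cause was not tested. Endothelial members above without overlap numbered 30 to 35 and fatty acid oxidation members below 21 to 36 over 20 alternatives. Overlap was read from values without covariates or weights. The brightness, slide column, array weight, variance prior and 4-array settings, and those without a sham or IRI array, had to return 34 and 26. The 3′ probe changed the probe of 2 members in each list. Several of the 20 cannot change a difference of mimic minus control miRNA. These are the 4 arrays alone, slide column, array weights, variance prior, and leaving out a sham or an IRI array. Of 44 named genes that had a value in each of the 20, 27 kept their sign throughout. The other 7 were not above background on all 4 arrays and lack that alternative, and 6 of them kept their sign in the rest. Signs turned with normexp for Apaf1 (0.28), Slc34a1 (-0.0195), Spp1 (-0.0073) and Tlr7 (0.049). They turned with quantile normalization for Fas (-0.036), Spp1 (-0.54) and Tlr3 (-0.019), and in the deposited table for Fas (-0.037), Spp1 (-0.57) and Tlr3 (-0.0199). With brightness they turned for Apaf1 (0.74), Fas (-0.0043), Havcr1 (0.16), Lcn2 (0.44), Lrrc7 (-0.13), Myorg (0.15), Pign (-0.10), Ppargc1a (-0.61), Slc6a19 (0.30), Spp1 (-0.018), Tlr7 (0.13) and Trpc6 (-0.25). By the median over probes they turned for Bax (-0.22), Bcl2 (0.0038), Casp9 (0.062), Fas (-0.26), Lrp2 (0.58), Slc34a1 (-0.32) and Tlr3 (-0.42), and at the 3′ probe for Tlr3 (-1.06). With 1 array left out, the differences of Bcl2 ran from -0.39 to 0.062, Tlr7 from -0.32 to 0.15, Fas from -0.066 to 0.11, Lcn2 from -1.60 to 0.043, Ppargc1a from -0.089 to 1.22 and Slc34a1 from -0.29 to 0.49.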

Other observations

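Arntl led the genes that lay higher, and other genes of the circadian clock were therefore read, a choice made after its value was seen. Of 14 clock genes tested 1 lay higher without overlap, Arntl, and 3 lay lower, Cry2, Nr1d2 and Per1. Over all genes the shares were 33.1% higher and 26.1% lower. Cry2, a repressor of the clock, had 0.67 and 0.80 in mimic kidneys against 1.83 and 1.60 in control-miRNA kidneys, a difference of -0.98, while another probe of the gene gave 0.35. Nr1d2, which represses Arntl, had 0.57 and 1.13 against 1.31 and 1.83. Clock, the partner of Arntl, overlapped (0.03), and Dbp and Per2, outputs of the clock, overlapped at -1.42 and -1.24. Nr1d1 (0.10), Cry1 (0.12) and Hlf (0.02) overlapped as well. No label gives the hour of day at which the kidneys were taken.

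In the unfolded protein response, Herpud1, which helps clear misfolded proteins from the endoplasmic reticulum, had 2.66 and 2.92 in mimic kidneys against 4.16 and 4.25 in control-miRNA kidneys, a difference of -1.42. Over 27 genes of heat shock and unfolded proteins 9 lay lower and 3 higher without overlap, against 26.1% and 33.1% of all genes. Pcna, the sliding clamp of DNA replication, had 2.47 and 2.73 in mimic kidneys against 3.78 and 2.96 in control-miRNA kidneys. Its difference was -0.77, or -0.25 with brightness. The mice of both groups disagreed on the cell cycle list. Its median against the control-miRNA mean was -0.90 in mimic mouse 6 and 0.21 in mouse 7. Against the sham mean it was 0.60 and 1.66 in mimic mice 6 and 7, and 2.40 and 0.69 in control-miRNA mice 1 and 5. IRI mice had 0.89 and 1.21 on that scale.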
